A study of Mus musculus with 8 samples.

Results

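The proliferation genes described here were 10 genes of the dividing cell: Cdk1, Ccna2, Ccnb1, Ccnb2, Aurkb, Birc5, Bub1, Top2a, Ube2c and Mki67. They were chosen by name, as the entries of the deposited expression table whose gene symbol equalled one of these names, and all 10 were found among 37979 genes. Their levels were measured by bulk RNA sequencing in 4 libraries of pericytes and 4 libraries of smooth muscle cells (SMCs) sorted from mouse hindlimb skeletal muscle, and the study compared both cell types to find genes that set muscle pericytes apart. All cells came from Ai14+/-;SM22α-Cre+ mice of both sexes at 3 to 4 months of age, in which cells that have ever used the SM22α promoter, and their progeny, keep the red protein tdTomato. Among DAPI-low cells without the shared FITC stain for CD31 and CD45, PDGFRβ+tdTomato- cells were taken as pericytes and PDGFRβ+tdTomato+ cells as SMCs. Several sorts were combined to reach about 60000 cells for a sample, so a library pools several sorts, and a mural cell outside the SMC class that has used SM22α falls in the SMC gate by this design. All 8 libraries carry 1 batch label.

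Cells that divide copy their DNA in S phase and separate the copies in mitosis. The cyclins A and B switch on the kinase Cdk1 for mitotic entry, and the ubiquitin ligase APC/C later marks these cyclins for destruction. Most genes of this late program are held silent in resting cells by DREAM, a complex built on the MuvB core, and are transcribed from the end of S phase onwards, so their messages are low in quiescent tissue. Pericytes and SMCs of adult muscle are regarded as mostly quiescent, whereas developing lymphocytes and myeloid precursors divide often.

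The libraries were first set against their labels. Ptprc, which encodes the CD45 that the gate excluded, was measured at 80.6 to 230.3 FPKM (fragments scaled by transcript length and by library size) in the pericyte libraries and at 4.34 to 11.9 FPKM in the SMC libraries. Pdgfrb, the gene of the receptor used for positive sorting, was at 3.21 to 17.6 FPKM in pericytes and at 15.6 to 91.5 FPKM in SMCs, and Tagln, the gene of SM22α, at 165 to 551 and 500 to 1569 FPKM. Pecam1, which encodes CD31, the other protein the gate excluded, ran the other way, at 24.96 to 59.7 FPKM in pericytes and 102 to 301 FPKM in SMCs (limma q = 0.00873). The gene of 1 excluded protein was thus higher in the pericyte libraries and that of the other in the SMC libraries. Pdgfrb overlapped between the groups and did not pass (limma q = 0.0973). With replicate number as a block in the fit it passed, lower in pericytes (log2 difference -2.02, limma q = 0.00601). The 13 mural markers summed to 622 to 1931 FPKM in pericytes and to 1837 to 5863 FPKM in SMCs. Summed FPKM over all genes was 1190435 in pericyte replicate 2 and 656405 to 782014 in the other 7 libraries, so values were also read without that library.

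The proliferation genes were higher in the pericyte libraries. Log2(FPKM + 1) was tested in all 27414 genes above 0 in at least 1 library with limma, with q from Benjamini-Hochberg adjustment over all of them. At q below 0.05, 9 of the 10 genes rose in pericytes against SMCs, where 10.6% of all genes tested were called higher and 11.2% lower. With the added bound of a log2 fold change above 2 that the study used, 8 of the 10 were called, against 3.24% of all genes tested. In 9 of the 10 the lowest pericyte level exceeded the highest SMC level, against 12.1% of all genes tested. Among the 13612 genes whose mean level reached 1 FPKM, here called expressed genes, the shares called higher, called above a log2 fold change of 2 and without overlap were 19.7%, 6.52% and 21.4%. The median log2 fold change of the 10 genes was 2.44, and that of all genes tested was 0.02. All 10 were above 0 in all 8 libraries, so none entered the test through 1 group only. Mki67 and Bub1 reached the mean of 1 FPKM of the expressed genes through the pericyte libraries. Their SMC means were 0.299 and 0.515 FPKM. Without pericyte replicate 2, 8 were called and 5 of them kept a log2 fold change above 2. Of all calls, 48.8% were higher in pericytes, and 36.2% after rescaling each library to the same sum. In bulk RNA, fewer cells of a type and less RNA per cell cannot be told apart.

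**Figure D1:**
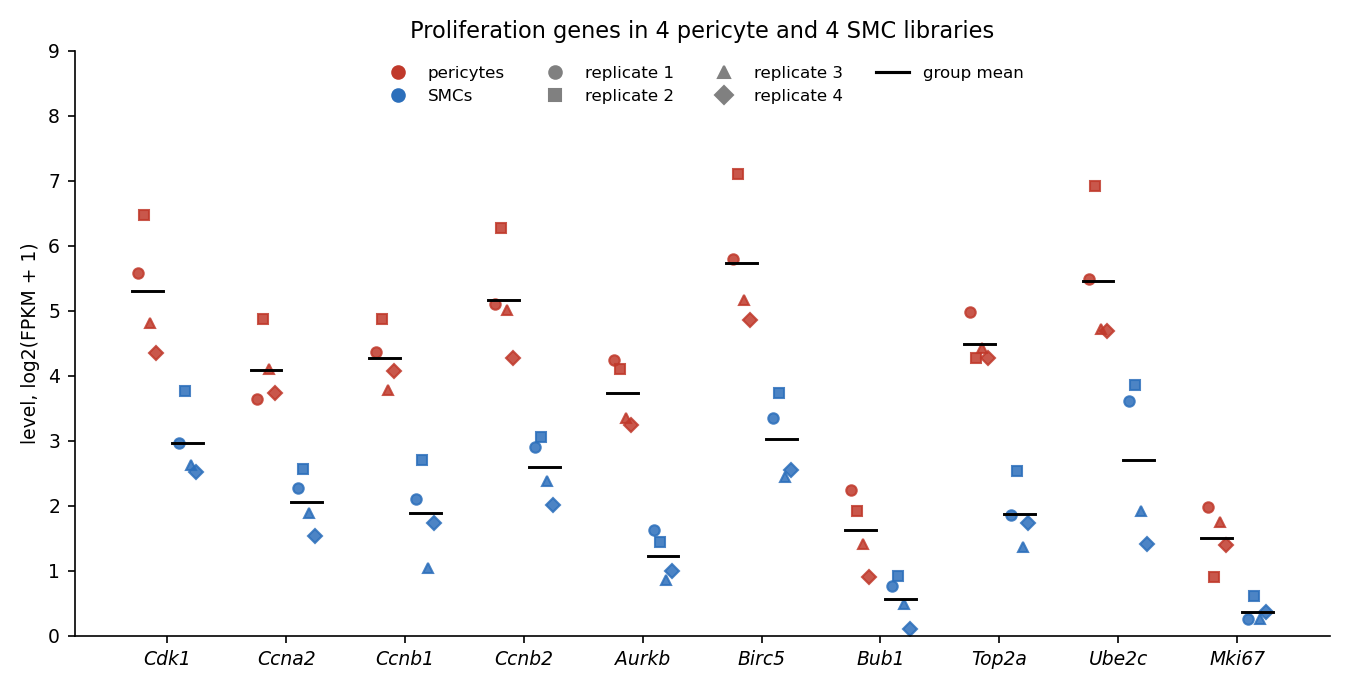
Level of each proliferation gene as log2(FPKM + 1), with red points for the 4 pericyte libraries, blue points for the 4 SMC libraries, a marker shape for each replicate number and a black line at each group mean. The red points lie above the blue points in 9 genes, and in Bub1 the lowest red point lies just under the highest blue point.

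Promoter sequence was set beside these levels as a description, and shared control of the genes was not tested. RefSeq promoter windows (build GRCm38.p6, 250 bases before to 50 after the annotated start) matched 8 of the 10 genes; Ccna2 and Aurkb had none. These windows were searched on both strands for the letters of 3 elements known from late cell cycle promoters: the cell cycle genes homology region (CHR; TTTGAA or TTCGAA), which MuvB complexes bind, the NF-Y box (CCAAT), and an E2F-type site (TTCCCGC or TTGGCGC or TTCGCGC). Shown are the stretches of up to 200 bases upstream of the gene for the 5 members that illustrate the range, from Top2a with the most matches to Birc5 with none, with every match in capitals.
Top2a promoter, chr11:99024200-99024389, minus strand: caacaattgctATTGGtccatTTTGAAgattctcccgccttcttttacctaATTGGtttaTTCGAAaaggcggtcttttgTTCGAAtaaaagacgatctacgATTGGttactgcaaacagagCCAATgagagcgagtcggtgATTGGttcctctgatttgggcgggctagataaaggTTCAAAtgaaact
Ccnb2 promoter, chr9:70421555-70421754, minus strand: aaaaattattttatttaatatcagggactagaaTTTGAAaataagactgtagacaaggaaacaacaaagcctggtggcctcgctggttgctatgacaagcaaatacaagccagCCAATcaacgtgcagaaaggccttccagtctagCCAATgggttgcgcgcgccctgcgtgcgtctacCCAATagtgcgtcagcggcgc
Cdk1 promoter, chr10:69352913-69353112, minus strand: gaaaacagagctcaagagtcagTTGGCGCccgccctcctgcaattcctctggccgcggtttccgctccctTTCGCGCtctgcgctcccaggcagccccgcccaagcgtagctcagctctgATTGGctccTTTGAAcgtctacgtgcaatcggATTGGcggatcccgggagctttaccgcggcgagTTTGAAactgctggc
Ube2c promoter, chr2:164769729-164769928, plus strand: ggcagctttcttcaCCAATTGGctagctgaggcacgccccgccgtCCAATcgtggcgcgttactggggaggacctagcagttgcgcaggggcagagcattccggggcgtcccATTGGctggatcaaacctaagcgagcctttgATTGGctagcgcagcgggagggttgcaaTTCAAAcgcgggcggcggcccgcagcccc
Birc5 promoter, chr11:117849037-117849236, plus strand: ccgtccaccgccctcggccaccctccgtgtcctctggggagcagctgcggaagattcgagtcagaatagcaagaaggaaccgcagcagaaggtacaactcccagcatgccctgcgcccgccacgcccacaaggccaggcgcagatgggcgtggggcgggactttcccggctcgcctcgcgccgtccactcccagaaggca

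The CHR letters were in 6 of the 8 windows, against 19.2% of 32851 windows in the RefSeq table, and 4 windows against 2.54% held them at least 2 times. CCAAT was found at least 2 times in 7 of the 8 windows, against 11.7% of all windows. Both elements together were in 6 windows (Mki67, Top2a, Ccnb2, Cdk1, Bub1 and Ube2c) and in 7.52% of all windows. An E2F-type match was in 3 windows (Mki67, Ccnb1 and Cdk1), against 8.07% of all windows, and that of Ccnb1 overlapped a CCAAT match by a few bases. In the Cdk1 window a CHR match began 15 bases and another 71 bases before the start, and CCAAT matches began 48, 80 and 208 bases before it. The Top2a window held 6 CCAAT and 4 CHR matches. In Ube2c, 6 CCAAT matches, a pair of which share bases as CCAATTGG, stood with 1 CHR match that began 29 bases before the start. Birc5 held none of these letters in its window. A match of letters is a description of the window and not a binding site.

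**Figure D2:**
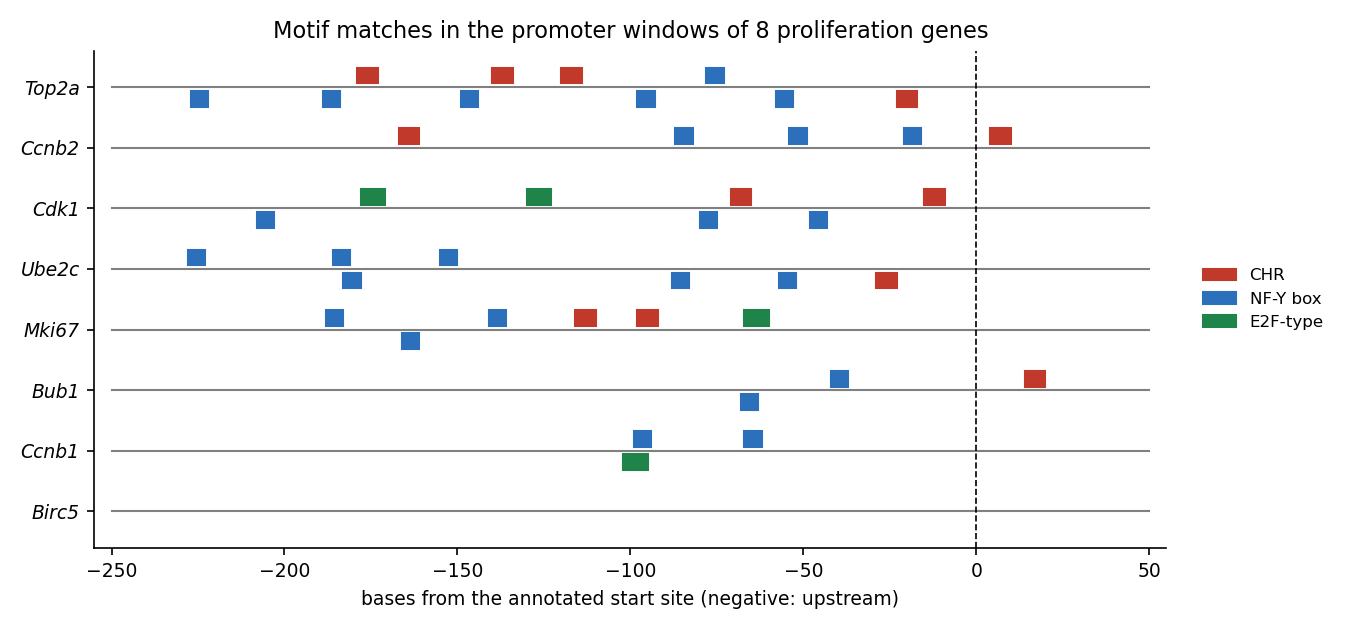
Matches of the CHR (red), NF-Y box (CCAAT, blue) and E2F-type letters (green) by distance in bases from the annotated start in 8 promoter windows, drawn above the line on the gene's strand and below it on the opposite strand. Top2a shows 6 NF-Y boxes and 4 CHR matches, and Birc5 shows no match.

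Cdk1, the kinase that drives mitotic entry (chr10:68799383-68815686, minus strand, build NCBI 37, as for all gene positions below), was at 46.7, 88.2, 27.2 and 19.4 FPKM in pericyte replicates 1 to 4 and at 6.85, 12.5, 5.20 and 4.71 FPKM in SMC replicates 1 to 4. Every pericyte library was above every SMC library, and replicate 2 was highest in both groups. The mean level was 45.4 ± 30.8 FPKM (SD, n = 4) in pericytes and 7.32 ± 3.58 FPKM in SMCs, a log2 fold change of 2.34 (SE 0.50, limma q = 0.0143). Without pericyte replicate 1 it missed the threshold (limma q = 0.0516, log2 fold change 2.25).

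Ccna2, which encodes cyclin A2, the Cdk partner of S phase and early mitosis (chr3:36463788-36471072, minus strand), was at 11.4, 28.2, 16.3 and 12.3 FPKM in the pericyte libraries and at 3.82, 4.94, 2.68 and 1.90 FPKM in the SMC libraries. The groups did not overlap. Here pericyte replicate 1 was the lowest of its group, unlike in the other 9 members. The log2 fold change was 2.02 (SE 0.33, limma q = 0.00456). Its annotated span overlaps Exosc9 on the opposite strand, and whether reads were counted by strand is not given in the sources used here.

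The B-type cyclins, which bind Cdk1 through mitosis, followed. Ccnb1 (chr13:101548605-101556525, minus strand) was at 19.6, 28.2, 12.7 and 15.9 FPKM in pericytes and at 3.28, 5.52, 1.07 and 2.32 FPKM in SMCs. Its lowest pericyte library was 2.30 times its highest SMC library. The log2 fold change was 2.38 (SE 0.38, limma q = 0.00427). Ccnb2 (chr9:70255496-70269361, minus strand) was at 33.2, 76.5, 31.4 and 18.3 FPKM in pericytes and at 6.51, 7.35, 4.21 and 3.01 FPKM in SMCs. Replicate 4 was the lowest and replicate 2 the highest of both groups, and the groups stayed apart. Ccnb2 had a log2 fold change of 2.58 (SE 0.44, limma q = 0.00563). A pseudogene, Ccnb2-ps, is listed separately at 0.0371 to 1.01 FPKM, and whether reads are shared between the copies was not tested.

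Aurkb encodes the kinase of the chromosomal passenger complex, which corrects spindle attachments and guides the split of the cell (chr11:68859149-68865166, plus strand). It was at 17.8, 16.2, 9.21 and 8.48 FPKM in pericytes and at 2.09, 1.71, 0.819 and 1.003 FPKM in SMCs. Of the 10 genes it had the widest gap between the groups, the lowest pericyte library being 4.06 times the highest SMC library, and the highest ratio of group means, 9.21. The log2 fold change was 2.50 (SE 0.29, limma q = 9.7e-04).

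Birc5 encodes survivin, the subunit that places this complex on chromatin (chr11:117710565-117717069, plus strand). Its level was 54.5, 136.8, 35.0 and 27.9 FPKM in pericytes and 9.24, 12.3, 4.44 and 4.88 FPKM in SMCs. It had the highest mean level of the 10 genes in both groups, 63.5 ± 50.1 FPKM (SD, n = 4) and 7.72 ± 3.75 FPKM, with replicate 2 highest in each. Birc5 rose by a log2 fold change of 2.71 (SE 0.54, limma q = 0.0107).

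Bub1, a kinase of the spindle assembly checkpoint (chr2:127626858-127657601, minus strand), was the member that did not pass the test. Its level was 3.73, 2.77, 1.67 and 0.871 FPKM in pericytes and 0.703, 0.882, 0.402 and 0.0716 FPKM in SMCs. Pericyte replicate 4 lay just below SMC replicate 2, and the other 3 pericyte libraries were above all SMC libraries. The means were 2.26 ± 1.25 and 0.515 ± 0.356 FPKM (SD, n = 4), and the log2 difference was 1.05 (SE 0.32, 95% CI 0.31 to 1.79, limma q = 0.0533). Settings under which it passed included quantile scaling (limma q = 0.0413), a covariate for replicates 1 and 2 against 3 and 4 (limma q = 0.00488) and leaving out pericyte replicate 4 (limma q = 0.0212).

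Top2a encodes the topoisomerase that untangles DNA copies before they separate (chr11:98854257-98885503, minus strand). It was at 30.7, 18.4, 20.4 and 18.4 FPKM in pericytes and at 2.62, 4.79, 1.58 and 2.33 FPKM in SMCs. The pericyte libraries lay close together except for replicate 1, which was higher, and pericyte replicate 2 was not above replicates 3 and 4. Top2a had the lowest q of the 10 genes, 6.4e-04 by limma, with a log2 fold change of 2.62 (SE 0.27). Small nucleolar RNA genes are annotated inside its span.

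Ube2c encodes the ubiquitin-conjugating enzyme that works with the APC/C (chr2:164595398-164604322, plus strand). Its level was 43.9, 120.4, 25.4 and 24.8 FPKM in pericytes and 11.2, 13.5, 2.78 and 1.66 FPKM in SMCs. The groups did not overlap, but replicates 1 and 2 stood well above replicates 3 and 4 in each group. It had the largest log2 fold change of the 10, 2.76, and also the largest error (SE 0.73, 95% CI 1.04 to 4.47, limma q = 0.0340). This call was lost without any 1 of the 4 pericyte libraries (limma q = 0.0941, 0.0649, 0.0568 and 0.0505 without replicates 1 to 4), without SMC replicate 3 (q = 0.0937), without SMC replicate 4 (q = 0.0811), or with all listed genes in the adjustment (q = 0.0758). Its span overlaps Tnnc2, a gene of fast muscle fibres, on the opposite strand.

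Mki67 encodes Ki-67, the coat protein of mitotic chromosomes and the usual histological mark of cycling cells (chr7:142881471-142908062, minus strand). It was at 2.93, 0.873, 2.38 and 1.64 FPKM in pericytes and at 0.196, 0.522, 0.189 and 0.288 FPKM in SMCs. The groups did not overlap, and pericyte replicate 2, highest in 6 other members, was here the lowest of its group while SMC replicate 2 was the highest. The log2 fold change was 1.14 (SE 0.23, limma q = 0.0114). With replicate number as a block in the fit Mki67 just missed the threshold, with the same log2 fold change (limma q = 0.0507). At such low levels the added 1 compresses the difference: the ratio of mean FPKM was 6.54, within the range of 4.40 (Bub1) to 9.21 (Aurkb) over the 10 genes, and with 0.1 added in place of 1 the log2 fold change was 2.32.

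**Figure D3:**
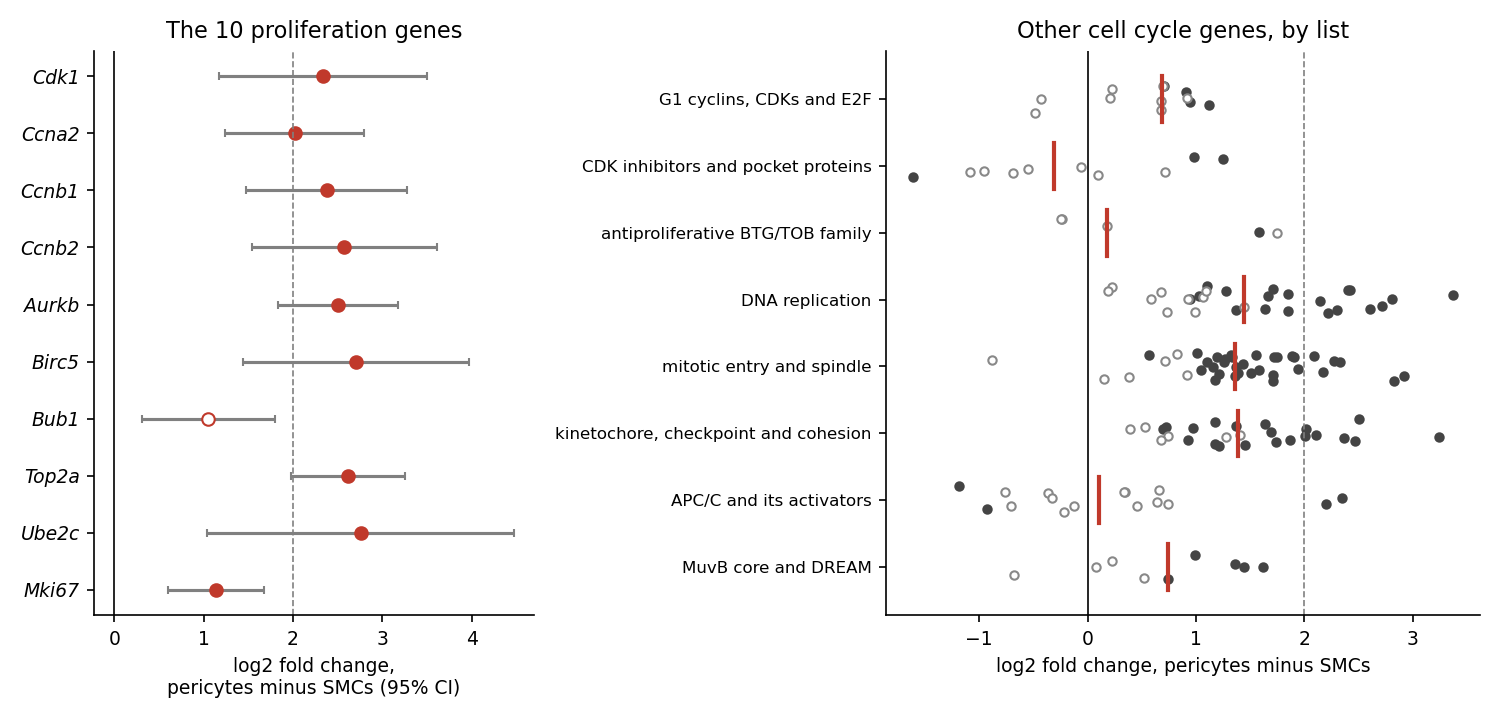
Log2 fold change of pericytes minus SMCs on the log2(FPKM + 1) scale for the 10 proliferation genes with 95% confidence intervals (left) and for 145 other cell cycle genes by list (right), where filled points passed q below 0.05, red bars are list medians and the dashed line marks a log2 fold change of 2. The 10 genes lie between 1.05 and 2.76, and the lists of DNA replication, mitotic entry and kinetochore genes have medians of 1.44, 1.36 and 1.39.

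The other genes of the cell cycle were read from 8 lists holding 145 genes, of which 85 rose in pericytes and 3 fell. The shares to read each list against are 10.6% higher and 11.2% lower of all genes tested, or 19.7% and 19.5% of the expressed genes. DNA replication genes rose in 19 of 29 cases and fell in none, with a median log2 fold change of 1.44, and 9 of them exceeded 2. Cdt1, which loads the replicative helicase, was at 27.8 to 48.1 FPKM in pericytes and at 1.56 to 3.64 FPKM in SMCs, the largest change of the list (log2 fold change 3.37, SE 0.23, limma q = 1.1e-04). The helicase subunits Mcm5 and Mcm2 had log2 fold changes of 2.80 and 2.71 (limma q = 4.7e-04 and 2.8e-04). Of the genes of mitotic entry and the spindle, 32 of 38 rose and none fell. They were led by Racgap1, of the central spindle, at 17.6 to 26.9 against 0.934 to 3.10 FPKM (log2 fold change 2.92, limma q = 2.7e-04), and by Cdca3 and Cks2 at 2.82 and 2.33 (limma q = 0.00503 and 0.0152). Wee1, the kinase that holds Cdk1 inactive, ran the other way without passing, at 2.52 against 5.66 FPKM on average (log2 difference -0.88, limma q = 0.0902).

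Kinetochore, checkpoint and cohesion genes rose in 20 of 26 cases with none lower. Cenpa, the histone variant of the centromere, was at 115 to 229 FPKM in pericytes and at 11.4 to 17.3 FPKM in SMCs (log2 fold change 3.24, SE 0.24, limma q = 1.4e-04). Cdca8, which binds Aurkb and Birc5 in the passenger complex, and the cohesion factor Cdca5 followed at 2.50 and 2.47 (limma q = 9.7e-04 and 0.00151). Bub1b, the checkpoint relative of Bub1, rose as well, at 7.22 to 13.6 FPKM in pericytes and 1.46 to 2.85 FPKM in SMCs (log2 fold change 1.87, limma q = 0.00154).

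In the APC/C list 2 of 16 genes rose and 2 fell, near the shares of all genes tested and below those of expressed genes. Its mitotic activator Cdc20 and its inhibitor Fbxo5 rose, by 2.34 and 2.20 on the log2 scale (limma q = 2.8e-04 and 7.6e-04), and 12 of the 16 genes did not pass. The remaining members were the core subunits Cdc16, which fell from 61.3 FPKM in SMCs to 25.7 FPKM in pericytes on average (limma q = 0.0171), and Anapc4, which fell from 34.3 to 18.2 FPKM (limma q = 0.0316). Without pericyte replicate 2 the list had 5 higher and 5 lower genes, and without pericyte replicate 3 none was lower. Ube2c, the enzyme that serves this ligase, is described above. Among the MuvB core and DREAM genes 5 of 9 rose (Lin9, Lin37, Lin54, Rbbp4 and E2f4) and none fell, with a median log2 fold change of 0.74.

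Genes that act before S phase were read next. In the list of G1 cyclins, their kinases and E2F factors 4 of 12 rose and none fell, with none above a log2 fold change of 2, and the count was 2 with TPM scaling and 7 with the covariate for replicates 1 and 2 against 3 and 4. Ccne2, cyclin E2, was at 3.42 to 6.31 FPKM in pericytes and at 1.30 to 1.96 FPKM in SMCs (log2 fold change 1.12, limma q = 0.00291), and Cdk6 and E2f2 rose by 0.95 and 0.90 (limma q = 0.00347 and 0.0108). Ccnd1, cyclin D1, overlapped between the groups at 5.08 to 10.4 and 8.06 to 14.6 FPKM (log2 difference -0.43, limma q = 0.298). The CDK inhibitors and pocket proteins were near the share of expressed genes called higher, where 2 of 10 rose (Rbl1 by 1.25 and Cdkn1b by 0.98; limma q = 0.00242 and 0.0453) and Cdkn2b, the inhibitor p15, fell from 5.37 to 1.13 FPKM on average (log2 fold change -1.61, limma q = 7.5e-04). Cdkn1a, the inhibitor p21, was lower in every pericyte library than in any SMC library, at 259 to 407 against 433 to 1039 FPKM, and did not pass (log2 difference -0.96, limma q = 0.0819). Of the antiproliferative BTG and TOB family 1 of 5 rose, also near that share: Tob2, by 1.58 (limma q = 0.0262). This count was 0 with TPM scaling, with all listed genes in the adjustment, and without SMC replicate 2 or pericyte replicate 1, 3 or 4. It was 2 with the filter of 1 FPKM in at least 4 libraries. Of the CDK inhibitors and pocket proteins 1 rose, in place of 2, without any 1 of the 4 SMC libraries or without pericyte replicate 1 or 4. The same held with quantile scaling, an intensity trend or all listed genes, whereas 3 rose without pericyte replicate 2.

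The levels also differed within each group by replicate number. The mean log2(FPKM + 1) of replicates 1 and 2 was above that of replicates 3 and 4 in 9 of the 10 genes in pericytes and in all 10 in SMCs, with median differences of 0.90 and 0.75. In 7 genes in pericytes and 9 in SMCs both of the first pair were above both of the second, against 27.4% and 33.6% of the 13612 expressed genes, and the median differences over those genes were 0.05 and 0.04. Summed FPKM of the 10 genes was 264.5, 516.5, 182 and 148 in pericytes and 46.5, 64.0, 23.4 and 22.2 in SMCs. The step was widest for Ube2c, by 1.50 in pericytes and 2.07 in SMCs, and smallest for Mki67, at -0.14 and 0.12. These differences are given as a description with no test, since the split was seen in earlier results of these libraries. Within each pair of replicate numbers pericytes stayed above SMCs, with no overlap in 10 of 10 genes in either pair. With only 2 libraries against 2, both pericyte libraries were above both SMC libraries in 27.1% of all genes tested in replicates 1 and 2 and in 26.1% in replicates 3 and 4, and in 35.0% and 41.0% of the expressed genes. The median log2 difference was 2.46 in replicates 1 and 2 and 2.41 in replicates 3 and 4, with ranges of 1.01 to 2.91 and 0.87 to 3.04.

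Pericyte replicate 2 stood above the other pericyte libraries in some members and below them in others. Its level over the median of the other 3 was 4.74 for Ube2c, 3.91 for Birc5, 3.24 for Cdk1 and 2.44 for Ccnb2, whose longest annotated transcripts run from 1541 to 3334 bases. It was 1.66 to 2.30 for Bub1, Aurkb, Ccnb1 and Ccna2. For the members with the longest transcripts it was 0.898 (Top2a, 5221 bases) and 0.367 (Mki67, 10075 bases). Across all expressed genes the difference fell with transcript length: the median log2 difference of this library from the other pericyte libraries was 0.95 for transcripts under 1000 bases, 0.58 from 1000 to 2000, -0.05 from 2000 to 4000 and -0.47 above 4000 bases. On this log2 scale Ube2c, Birc5 and Cdk1 were at 2.20, 1.94 and 1.66, and Ccna2, Ccnb1 and Bub1 at 1.14, 0.79 and 0.50. All of these lay above the upper quartile of their class of 2000 to 4000 bases, 0.39. Ccnb2, at 1.26, was also above the upper quartile of its class, 0.93. Aurkb, Top2a and Mki67, at 0.76, -0.15 and -0.85, were within the quartiles of theirs. The part of transcript length in the levels of these genes was not tested.

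**Figure D4:**
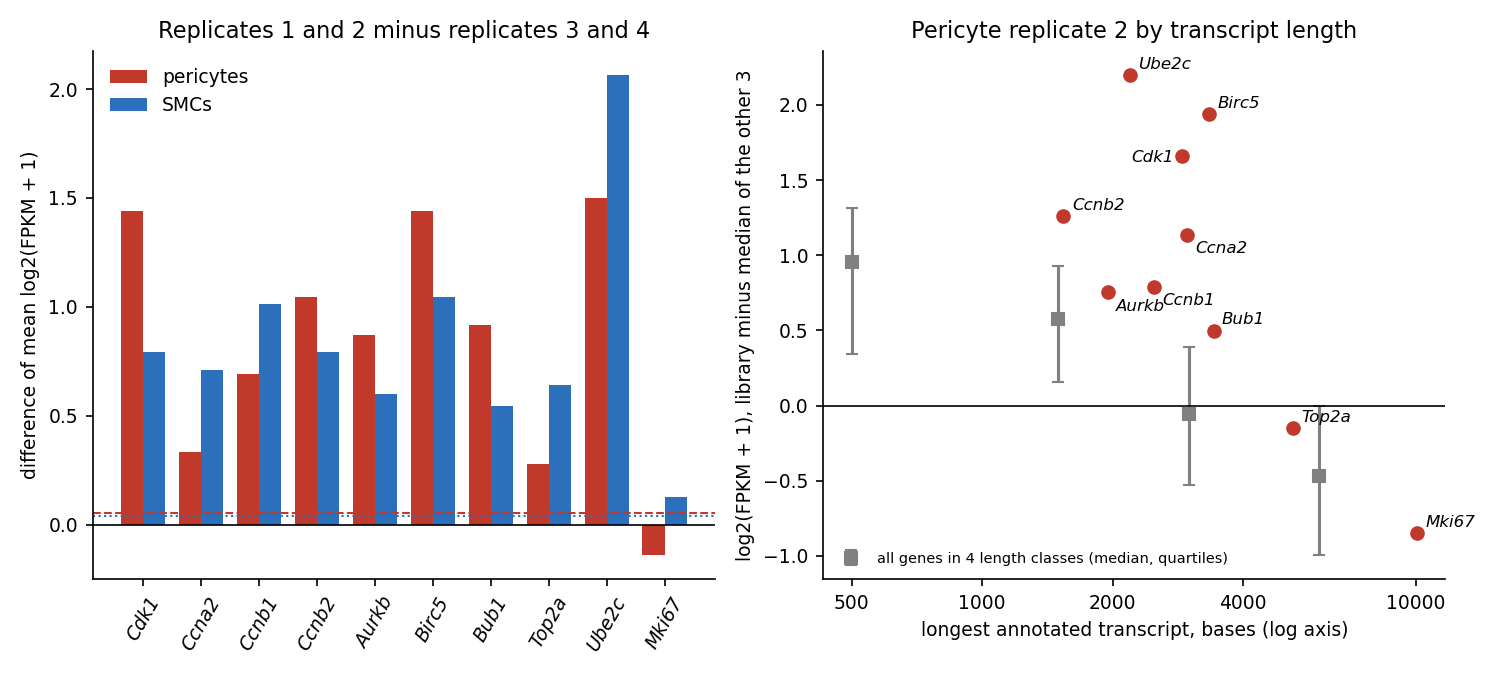
Left: difference of mean log2(FPKM + 1) between replicates 1 and 2 and replicates 3 and 4 for each proliferation gene in pericytes (red bars) and SMCs (blue bars), with dashed and dotted lines at the medians of all expressed genes (0.05 and 0.04). Right: log2(FPKM + 1) of pericyte replicate 2 minus the median of the other 3 pericyte libraries against the longest annotated transcript, where red points are the 10 genes and grey squares give the median and quartiles of all expressed genes in 4 length classes (under 1000, to 2000, to 4000 and above 4000 bases, each drawn at 1 position inside its class), falling from 0.95 to -0.47.

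Markers of other cells moved with the proliferation genes, and their part in the result was not tested. All 8 B cell markers and 8 of 9 T cell markers rose in pericytes, with summed levels of 900 to 2149 against 11.2 to 34.5 FPKM and of 1558 to 2324.5 against 22.3 to 52.2 FPKM. Of the lymphoid progenitor and thymocyte list (Rag1, Rag2, Dntt, Ptcra, Vpreb1, Vpreb3 and Igll1), whose cells divide, 5 of the 6 genes tested rose. Its summed level was 321, 644, 66.5 and 123 FPKM in pericytes and 27.9, 28.8, 1.29 and 4.34 FPKM in SMCs, so it too was higher in replicates 1 and 2 than in replicates 3 and 4 of each group. The sums of the B cell, satellite cell and erythroid lists were divided the same way in both groups: B cell markers were at 1477, 2149, 988 and 900 FPKM in pericytes and at 33.7, 34.5, 11.2 and 17.6 FPKM in SMCs, and satellite cell markers at 83.5, 131.5, 5.43 and 45.4 FPKM and at 110.2, 92.7, 23.6 and 40.5 FPKM. Erythroid markers were at 540.5, 1915, 532 and 67.2 FPKM in pericytes and at 247, 424, 117 and 70.3 FPKM in SMCs. Ptcra, the defining gene of early thymocytes, was listed at 0 in all 8 libraries, Rag1 reached 0.578 FPKM and Rag2 1.66 FPKM, and the sum came mostly from the pre-B cell genes Igll1 and Vpreb3.

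The germinal centre list had none of 5 markers higher and a lower sum in pericytes (36.5 to 69.8 against 77.5 to 117.5 FPKM). In the neutrophil list 4 of 10 rose, namely Mpo, Elane, Prtn3 and Ctsg, the granule genes of dividing precursors. Mpo was at 262 to 535 FPKM in pericytes and at 0.696 to 39.8 FPKM in SMCs, while the late markers Camp, Ltf and Ngp overlapped between the groups. Of the 8 erythroid markers none was higher and 1 lower. With replicate number as a block Hbb-b1 passed as higher (limma q = 0.0428).

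Other lists were lower in pericytes or had few members that passed. Fibroblast markers summed to 1081 to 1981 against 5462 to 7481 FPKM, with 8 of 9 lower and 1 (Dcn, listed at 0 in all 4 SMC libraries) higher. Endothelial markers summed to 102 to 182 against 460 to 1274 FPKM, with 6 of 8 lower, and macrophage markers to 83.6 to 196 against 362 to 569 FPKM, also with 6 of 8 lower. Of the 13 mural markers none was higher and 1, Rgs5, was lower, and the log2 difference was below 0 in all 13. Plasma cell markers overlapped in their sum, at 248 to 744 and 279 to 434 FPKM. Of 5, Igj, the joining chain of secreted antibodies, was higher, at 68.4 to 492.5 against 3.10 to 21.5 FPKM (limma q = 0.00623), and Xbp1, which many secretory cells use, was lower, at 156 to 218 against 249.1 to 358 FPKM (limma q = 0.0304). With replicate number as a block Xbp1 missed the threshold (limma q = 0.0895). None of the 5 satellite cell markers passed in either direction. Of the genes used by every cell 3 of 9 tested rose, with sums of 13499 to 27641 against 7769 to 11173 FPKM.

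**Figure D5:**
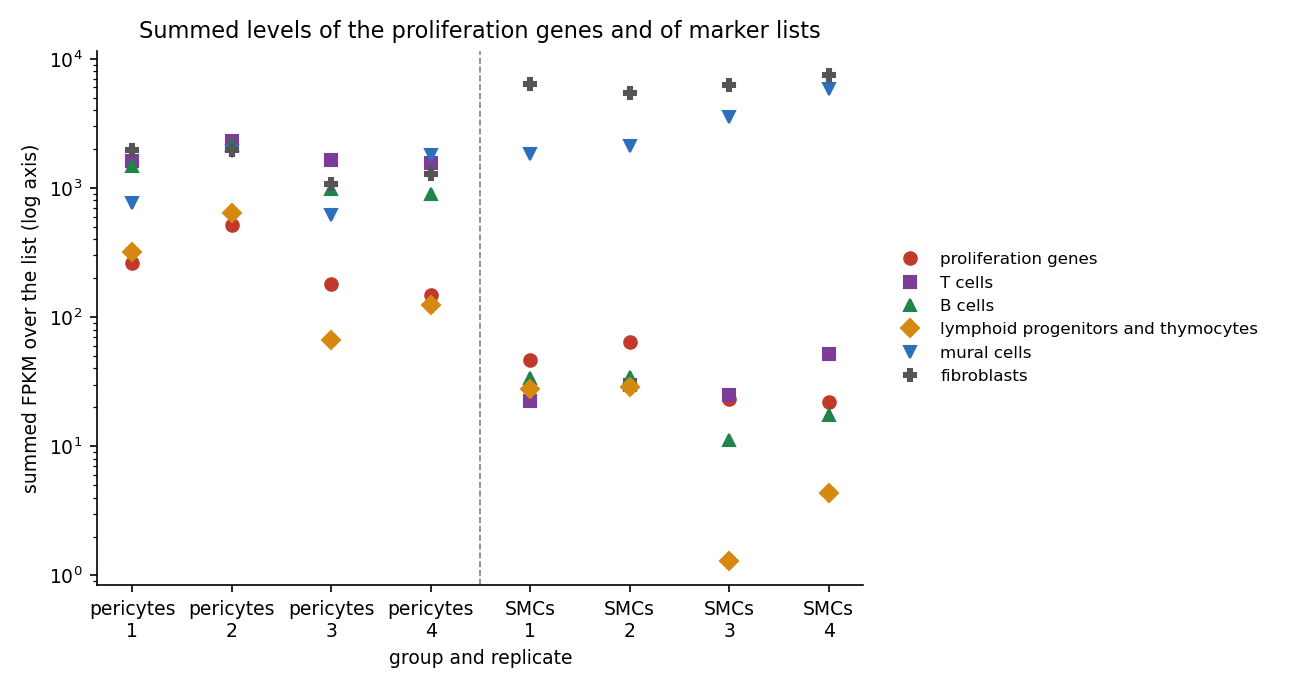
Summed FPKM (log axis) of the 10 proliferation genes and of 5 marker lists in each of the 8 libraries. The proliferation genes lie at 148 to 516.5 in pericytes and at 22.2 to 64.0 in SMCs, and the T cell and B cell sums lie at 900 to 2324.5 in pericytes and at 11.2 to 52.2 in SMCs.

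Genes whose levels followed the mean of the 10 most closely were named by Pearson correlation of log2(FPKM + 1) across the 8 libraries among 13602 other genes. The 10 closest, with r from 0.993 to 0.997, were Stmn1, 2810417H13Rik, Umps, Cdca3, Asf1b, Hmgb2, Nfkb1, Dera, Trav14n-3 and Slbp. Of these Stmn1 and Cdca3 belong to the mitotic list above, Asf1b is a histone chaperone, Slbp binds histone messages in S phase, and Trav14n-3 is a variable segment of the T cell receptor alpha chain. Stmn1, the microtubule regulator stathmin, was at 291, 420, 196 and 161 FPKM in pericytes and at 67.2, 74.7, 40.1 and 43.6 FPKM in SMCs. Of the 100 closest genes 13 were in the cell cycle lists. These lists hold 145 genes, of which some, such as Cenpe and Cdkn2a, had a mean under 1 FPKM. Such genes were not among the 13602 expressed genes compared. The points share the split into 2 groups and the replicate numbers, so these values describe likeness over 8 libraries and carry no test.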

How the data were processed

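Pericytes and SMCs were sorted in 4 pooled samples each, and RNA was made into libraries with SMART-Seq v4 and Nextera XT. The authors aligned reads to NCBI Build 37 with Bowtie2 and TopHat using an Ensembl annotation and deposited FPKM per gene and library; the program that computed FPKM and the use of strand are not given in the sources used here. Read numbers are unknown, so no counting error is given; low values put relative depth at 0.874 to 1.07 times that of SMC replicate 1.

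Log2(FPKM + 1) was fitted with limma 3.58.1 in R 4.3.3 (lmFit, eBayes) over 27414 genes, with Benjamini-Hochberg adjustment, after a test on simulated data. Sums, correlations, motif searches and figures used Python 3.11.15, pandas 2.3.3, numpy 2.4.6 and matplotlib 3.10.9. Gene positions came from GENCODE vM1. P-values measure the spread between pooled samples.

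Members, cell cycle lists and marker lists were chosen with earlier results of these data known. Named were the 10 members, genes of the lists (the largest called changes, up to 3 per direction, and others by role), the 10 most correlated genes and the genes of the gate. Mzb1 of the plasma cell list was not found. Alternatives were a pseudocount of 0.1, a filter of 1 FPKM in at least 4 libraries, all genes listed, 3 other scalings, a replicate block, replicates 1 and 2 against 3 and 4 as a covariate, an intensity trend, and each library left out.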

Additional observations from a re-analysis of the deposited data

Results flagged for a closer look

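Of 48 sets of 4 libraries checked for a library far from the other 3, 3 were found, and chance alone would give about 1 in 20. Top2a in pericyte replicate 1, at 30.66 FPKM, stood above 3 libraries between 18.4 and 20.4 FPKM. The summed T cell markers in pericyte replicate 2 were 2324.5 FPKM, against 1558 to 1633 FPKM in the other pericyte libraries. The summed level of the genes used by every cell was 27641.4 FPKM in the same library, against 13499 to 15073 FPKM in the other 3, and this is also the library with the largest FPKM sum.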

How the results depend on the processing

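Each of the 10 genes kept its direction in all 168 values recomputed under the alternatives; 155 stayed on the same side of the threshold, 9 lost the call (Ube2c, Cdk1 and Mki67) and 4 gained it (Bub1). The number called was 7 to 9 with 1 library left out, and the number above a log2 fold change of 2 was 5 to 8, with 5 without pericyte replicate 2, where Ccna2 and Cdk1 came to 1.76 and 1.95 and Ube2c lost its call; the cause was not tested. The filter of 1 FPKM removed Mki67 and Bub1 from the test. Of the 145 cell cycle genes, 73 to 87 were higher with 1 library left out. The 3 lower ones became 6 with the filter of 1 FPKM, 6 with TPM scaling and 5 with the covariate for replicates 1 and 2 against 3 and 4, and 1 to 6 with 1 library left out; the cause was not tested. With the replicate block 9 members, 8 above a log2 fold change of 2 and 81 cell cycle genes were called higher and 3 lower, Mki67 missing the threshold (limma q = 0.0507) and Bub1 passing it (limma q = 0.0110). Under this block 5 of the 13 mural markers were lower, in place of 1, and Pdgfrb was among them (limma q = 0.00601). Endothelial markers were lower in 7 of 8 cases, and Xbp1 of the plasma cell list lost its call. Higher calls came to 9 T cell, 6 lymphoid progenitor and thymocyte, 5 neutrophil and 1 erythroid markers. The sources used here do not say that equal numbers share animals, deviations of same-numbered libraries correlated at 0.0794 to 0.474, and 2 of 4 pericyte libraries correlated best with their own number. Depth is unknown, so the precision of low values such as those of Bub1 and Mki67 is unknown too.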
